A study of Mus musculus with 2 samples.

Results

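The 8 genes described here encode the membrane-proximal part of the T cell receptor (TCR) signaling machinery: the kinases Lck, Fyn and Zap70, the receptor chain Cd247, the adaptors Lat and Lcp2, and the effectors Vav1 and Plcg1. They were taken by name, for their known roles, from 32285 genes counted in each library. Among them are substrates of PEP, the tyrosine phosphatase encoded by Ptpn22. Single-cell RNA sequencing had been carried out on live CD45+ splenocytes at 8 days after infection with LCMV-cl13 (lymphocytic choriomeningitis virus, clone 13), a strain that persists in the host. PEP-WT mice carried wild-type Ptpn22, and PEP-619WW mice were homozygous for a knock-in, made by genome editing on the C57BL/6 background, that replaces arginine with tryptophan at residue 619 of PEP and mirrors a human autoimmunity-associated allele. All animals were infected. Spleens of 4 to 5 age- and sex-matched mice were pooled for each genotype and sequenced as 1 library, so no comparison had a biological replicate. The sample labels name liver, the Jurkat line and tumor-infiltrating cells, whereas the title, the protocol and the study's methods describe spleen. T, B, myeloid, neutrophil and erythroid markers were all present.

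A second pair of libraries deposited under the same samples was kept apart and is called run 2. No source used here says how the runs relate. Run 2 was unlike run 1 in its cells: barcodes in the Csf1r gate were 52.8% of PEP-WT and 35.1% of PEP-619WW in run 2 against 4.61% and 5.21% in run 1, and barcodes with at least 3 of 6 melanocyte genes numbered 256 and 27 in run 2 and 0 in both libraries of run 1. The cell numbers in the study's methods match run 2, not run 1. All values below are from run 1 unless run 2 is named. Run 1 held 14821 PEP-WT barcodes with a median of 2832 unique molecular identifiers (UMIs) and 8576 PEP-619WW barcodes with a median of 3293, and 39 barcode sequences occurred in both libraries.

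T cells were barcodes with a UMI of Cd3e, a chain of the CD3 complex. There were 2355 of them for PEP-WT and 1466 for PEP-619WW, of which 700 and 480 also held Cd79a (B cells) or Csf1r (macrophages and monocytes) and were left out. The rest were divided by Cd8b1 or Cd4, and by Gzmb, which encodes granzyme B, a protease of cytotoxic granules. Barcodes with both Cd8b1 and Cd4, 31 in PEP-WT and 25 in PEP-619WW, were left out. So were those with neither, 434 and 178, which were shallow, with medians of 2375.5 and 2763 UMIs. CD8 cells with at least 3 Gzmb UMIs numbered 507 in PEP-WT and 469 in PEP-619WW, and CD8 cells without Gzmb numbered 347 and 82. CD4 cells without Gzmb numbered 205 and 142, and CD4 cells with at least 3 Gzmb UMIs only 9 and 16. PEP-619WW barcodes were deeper in every class, with medians of 7388 against 5616 UMIs in Gzmb-high CD8 cells, 5622.5 against 3843 in Gzmb-negative CD8 cells and 5553.5 against 3788 in Gzmb-negative CD4 cells.

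When a TCR binds peptide and MHC, Lck, which is carried to the receptor by CD4 or CD8, phosphorylates the signaling motifs of the CD3 and zeta chains. Zap70 docks on these motifs and phosphorylates the scaffold Lat and the adaptor SLP-76, the product of Lcp2, which bring in Vav1, an exchange factor acting on the actin cytoskeleton, and phospholipase C gamma 1, the product of Plcg1, which starts calcium and protein kinase C signaling. PEP, with the kinase Csk, damps the Src-family kinases at the top of this chain. UMI counts report mRNA and not phosphorylation, and 3' counts of Ptpn22 do not show the substitution.

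The members lie on 7 chromosomes of GRCm38: Zap70 at chr1:36761798-36782818 and Cd247 at chr1:165788681-165877277, Plcg1 at chr2:160731300-160775760, Lck at chr4:129548344-129573641, Lat at chr7:126363824-126369570, Fyn at chr10:39368855-39565381, Lcp2 at chr11:34046920-34092295 and Vav1 at chr17:57279100-57328031. Lck and Lat are on the minus strand and the others on the plus strand. Promoters of all 8 members were found in the RefSeq table, 11 in number, since Zap70 and Lck have several. The promoters of Zap70 and Vav1 are printed because these genes stood at opposite ends of the levels below, Zap70 restricted to T and NK cells and Vav1 found in T, B and myeloid cells alike. Each holds the 250 bases before the annotated start (GRCm38.p6, plus strand, chr1:36761548-36761797 for Zap70 and chr17:57278850-57279099 for Vav1). Capitals mark a match to the ETS motif CCGGAA in Zap70 and to the PU.1 motif GAGGAAGT, which itself contains the ETS core GGAA, in Vav1.
Zap70: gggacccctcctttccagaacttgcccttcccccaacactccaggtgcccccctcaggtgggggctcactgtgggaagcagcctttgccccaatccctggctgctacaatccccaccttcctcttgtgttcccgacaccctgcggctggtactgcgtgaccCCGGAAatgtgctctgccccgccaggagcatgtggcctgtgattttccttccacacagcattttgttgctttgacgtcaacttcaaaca
Vav1: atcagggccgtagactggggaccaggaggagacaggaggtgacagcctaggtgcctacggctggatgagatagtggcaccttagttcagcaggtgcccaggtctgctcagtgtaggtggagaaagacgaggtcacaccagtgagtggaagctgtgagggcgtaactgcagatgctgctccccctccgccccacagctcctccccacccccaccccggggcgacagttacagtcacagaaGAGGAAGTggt
Of 32851 mouse promoters of this length, 12.0% held CCGGAA and 2.44% held GAGGAAGT on either strand, against 1 of 11 member promoters for each. The RUNX motif TGTGGT was in 14.0% of all promoters and in 2 of the 11, the GATA motif AGATAA in 9.99% and 1, and the TCF and LEF motif CTTTGA in 13.8% and 3. These matches describe letters in a window and not binding.

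Across the cells of the spleen the members fell into those found mainly in T cells and those shared with other lineages. Levels are UMIs of the gene per 1000000 UMIs of the gate (CPM), in which each molecule is counted once whatever its length. Whether the mRNAs of different genes were captured equally well was not tested, so an order of genes is one of counts. Lck was at 327 CPM (95% interval 309.6 to 346) in Gzmb-high CD8 cells of PEP-WT and 354 (336 to 372) in PEP-619WW. In the B cell gate it was at 21.9 and 15.6 CPM and in the myeloid gate at 7.24 and 8.12. These intervals, like all others here, cover counting error only, and all are exact except those of differences between ratios. Zap70 was at 114 and 117 CPM in Gzmb-high CD8 cells against 3.37 and 3.72 in B cells. Lat was at 284 and 258 CPM against 7.49 and 6.51, and Cd247 at 160.1 and 168 CPM against 5.13 and 4.18. B cell barcodes also held 188 and 148 CPM of the 5 T cell markers summed, where Gzmb-high CD8 cells held 4851 and 4930.4. Cd2 alone made up 90.2 and 69.8 CPM of the B cell sums, but only 363 and 383 of the CD8 sums. Free RNA and doublets in the B cell values were not tested.

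Fyn, which shares much of Lck's function, was less restricted, at 188 and 205 CPM in Gzmb-high CD8 cells, 34.0 and 40.1 in the myeloid gate and 15.8 and 16.4 in B cells. Lcp2 was at 122 and 149 CPM in Gzmb-high CD8 cells and higher in the myeloid gate, at 187 and 208 CPM, with intervals that did not overlap between these 2 in either genotype. Gzmb-negative CD4 cells, at 201 (175 to 230.1) and 229 CPM (200.1 to 261), were not below the myeloid gate. Neutrophils held 160.2 and 119 CPM of Lcp2, whereas B cells, which use the related adaptor Blnk, held 10.9 and 10.5. In run 2 the order was the reverse, with Lcp2 at 82.1 and 134 CPM in the myeloid gate and 211 and 170.4 in Gzmb-high CD8 cells. Vav1 ranged from 29.0 and 34.6 CPM in Gzmb-high CD8 cells through 35.0 and 29.4 in B cells to 63.7 and 56.6 in the myeloid gate. Plcg1 was at 21.2 (16.9 to 26.3) and 29.1 CPM (24.2 to 34.7) in Gzmb-high CD8 cells, with intervals that overlapped those of Vav1, and at 6.80 and 8.52 in B cells.

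NK cells, which carry zeta-chain receptors without a TCR, were few, with 60 and 29 barcodes. They held 226 and 174 CPM of Lck, 199 and 234 of Fyn, and 72.4 and 52.9 of Cd247. Lat was at 45.2 and 45.4 CPM, below each T cell class, and Plcg1 had no UMI in either library, where 3 counts would have been 13.6 and 22.7 CPM. In run 2, where 415 PEP-619WW barcodes fell in the NK gate, Plcg1 was at 2.45 CPM (0.668 to 6.28) from 4 UMIs, Lat at 25.8 and Lck at 215.

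**Figure D1:**
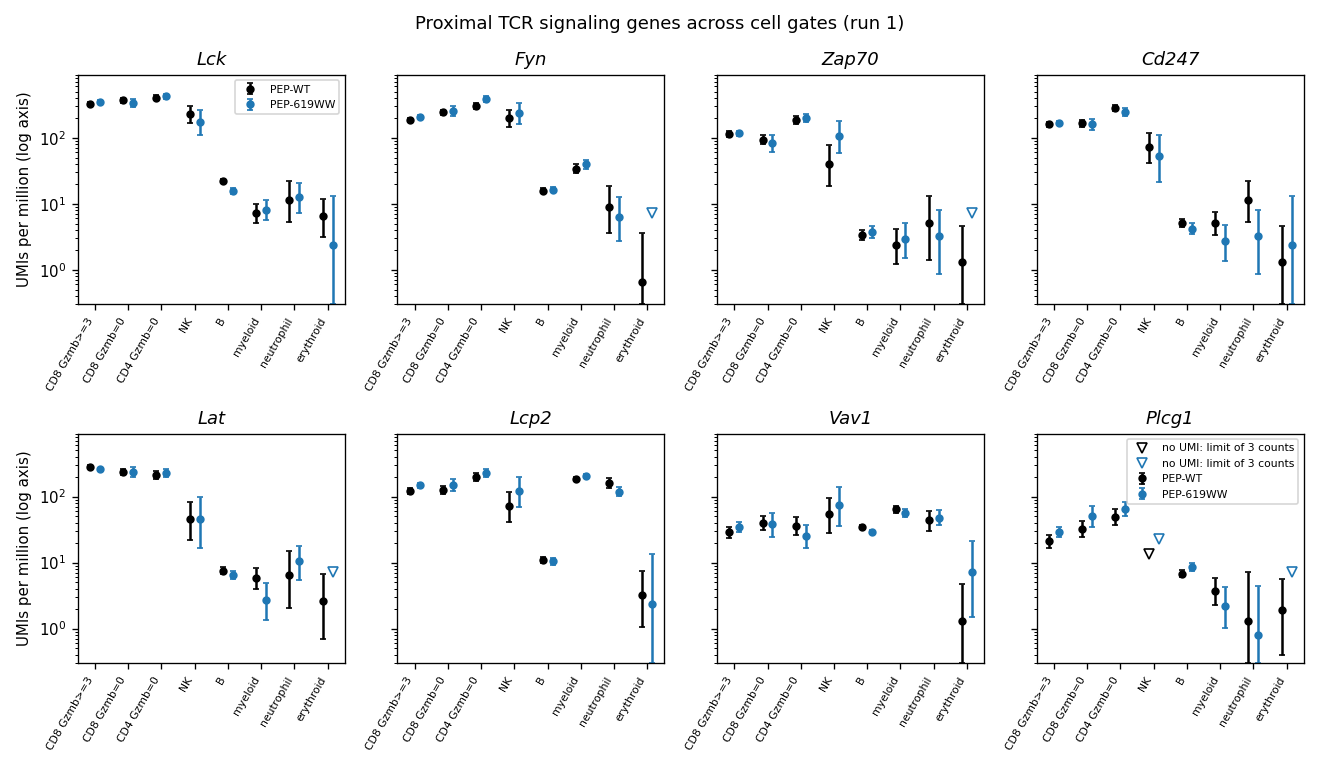
CPM (log axis) of the 8 members in 3 T cell classes and 5 other gates of run 1, with PEP-WT in black and PEP-619WW in blue; bars are exact 95% intervals, cut at the lower edge of the axis, and open triangles mark gates with no UMI at the value of 3 counts. Lck, Zap70, Cd247 and Lat lie far higher in T cells than in B or myeloid cells, Lcp2 in myeloid cells and neutrophils, at 119 to 208 CPM, is in the range of T cells, and Vav1 lies between 25.6 and 75.6 CPM in all gates but the erythroid one.

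Shares of barcodes with a UMI were also taken after each barcode was thinned to 2000 UMIs. Lck was found in 52.6% and 51.8% of thinned Gzmb-high CD8 barcodes, in 87.0% and 89.8% of the full ones, and in 4.61% and 4.08% of thinned B cell barcodes. Vav1 was found in 5.44% and 8.39% of thinned Gzmb-high CD8 barcodes and in 7.27% and 7.51% of thinned B cell barcodes, with overlapping intervals in each genotype, so these shares could not be told apart at this depth. A thinned Gzmb-high CD8 barcode held on average 2.10 of the 8 members in PEP-WT and 2.14 in PEP-619WW. The means were 2.08 and 2.04 without Gzmb, 2.47 and 2.67 in Gzmb-negative CD4 cells, 1.18 and 1.24 in NK cells, 0.593 and 0.546 in the myeloid gate and 0.216 and 0.224 in B cells. At least 4 members were found in 10.7% and 11.8% of thinned Gzmb-high CD8 barcodes and in 23.4% and 27.9% of Gzmb-negative CD4 barcodes.

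Within T cells Lck had the highest value and Vav1 and Plcg1 the lowest in each large class, while the order of the genes between them differed. Lck took 26.3% and 26.9% of the 8 genes' UMIs in Gzmb-high CD8 cells, 28.3% and 25.4% in Gzmb-negative CD8 cells and 24.2% and 23.5% in Gzmb-negative CD4 cells. Lat took 22.8% and 19.7% in Gzmb-high CD8 cells but 12.6% in Gzmb-negative CD4 cells of both genotypes. Fyn took 15.1% and 15.6% in the former and 18.1% and 21.4% in the latter. In Gzmb-negative CD8 cells of both genotypes the intervals of Fyn and Lat overlapped, at 243 (220.5 to 267) and 235 CPM (213 to 259) in PEP-WT, so these neighbours could not be ordered. In PEP-619WW the intervals of Lck and Fyn overlapped as well, at 332 (288 to 382) and 255 CPM (216 to 298) in Gzmb-negative CD8 cells and at 425 (386 to 468) and 387 (349 to 428) in Gzmb-negative CD4 cells, as did those of Zap70 (61.4 to 109) and Plcg1 (34.8 to 72.8) in Gzmb-negative CD8 cells. Overlap of separate intervals is no test of a difference, and the order of these pairs was not tested.

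**Figure D2:**
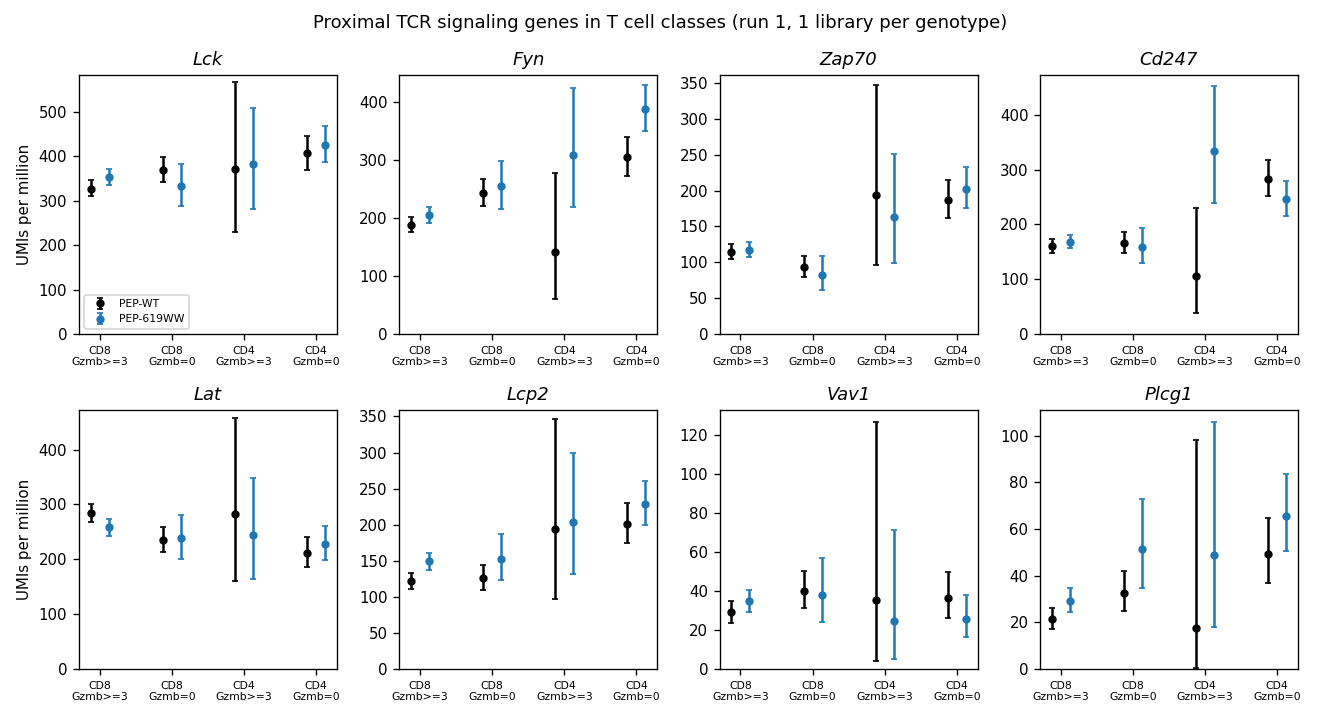
CPM of each member in the T cell classes of run 1, PEP-WT beside PEP-619WW, with exact 95% intervals of the counts. In the 3 large classes most members of the 2 genotypes lie close together, and Zap70, Cd247, Lcp2 and Plcg1 of PEP-WT are higher in Gzmb-negative CD4 cells than in CD8 cells. In CD4 cells with at least 3 Gzmb UMIs the bars are wide, and Cd247 and Fyn lie higher in PEP-619WW.

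Expression of the 8 genes was next compared between PEP-619WW and PEP-WT in each class, to ask whether the allele that changes their regulator goes with a change in their mRNA. In the 3 large classes the pooled differences were small. Summed over the members, Gzmb-high CD8 cells held 1315 CPM in PEP-619WW and 1246 in PEP-WT, a log2 ratio of 0.08 (0.02 to 0.13), where the median of 8463 genes was 0.03. Left without the exclusion by Cd79a or Csf1r it was -0.02 (-0.07 to 0.02), without cycling barcodes -0.01 (-0.11 to 0.09), thinned to 2000 UMIs 0.02 (-0.09 to 0.13) and as a mean over barcodes 0.01. Gzmb-negative CD8 cells held 1308 and 1305 CPM, a log2 ratio of 0.00 (-0.11 to 0.12). Gzmb-negative CD4 cells held 1809 and 1679 CPM, a log2 ratio of 0.11 (0.01 to 0.20), which turned to -0.08 (-0.26 to 0.10) with 9 more excluded genes and to -0.01 (-0.12 to 0.10) in barcodes of 3000 to 15000 UMIs, and was 0.26 (0.18 to 0.35) with no exclusion. In Gzmb-high CD4 cells, with 9 and 16 barcodes, the pooled ratio was 0.35 (-0.04 to 0.75). Cd247 there was at 333 CPM in PEP-619WW from 41 UMIs and at 106 in PEP-WT from 6, a ratio of 1.66 (0.41 to 3.18). Fyn was at 309 CPM from 38 UMIs and 141 from 8, a ratio of 1.13 (0.01 to 2.44). The intervals of the other 6 members included 0. In run 2, where this class had 3 PEP-WT barcodes with 4 UMIs of each gene, Cd247 was at 71.7 CPM (46.4 to 106) in PEP-619WW and 86.2 (23.5 to 221) in PEP-WT, and Fyn at 183 (141 to 234) and 86.2 (23.5 to 221), with overlapping intervals that allow a difference in either direction.

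A gene was counted as higher or lower when the ratio passed 1.5-fold, among genes with at least 50 UMIs in both groups together; this is a size, not a test. In Gzmb-high CD8 cells 0 of 8 members passed in either direction, where 5.71% of all genes were higher in PEP-619WW and 3.63% lower. In Gzmb-negative CD8 cells 1 of 8 members, Plcg1, was higher and 0 lower, where 7.81% of all genes were higher and 6.39% lower. Plcg1 stood at 51.3 CPM in PEP-619WW from 31 UMIs and at 32.6 in PEP-WT from 58, a log2 ratio of 0.65 whose interval (-0.03 to 1.31) included 0. In Gzmb-negative CD4 cells 0 of 8 passed in either direction, where 7.25% of all genes were higher and 7.00% lower. Each share of members was thus at or near that of all genes.

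Some smaller ratios had intervals clear of 0. How many of all genes had such intervals was not taken. In Gzmb-high CD8 cells 59.9% of all genes had a ratio below that of Lck, 29.5% below Lat, 78.1% below Lcp2 and 89.4% below Plcg1. For Fyn in Gzmb-negative CD4 cells it was 82.3%. Among the kinases, Lck in Gzmb-high CD8 cells had a log2 ratio of 0.11 (0.00 to 0.22), which lay between -0.02 and 0.26 over 15 alternatives and kept its sign in 12. Fyn in Gzmb-negative CD4 cells had a ratio of 0.35 (0.13 to 0.57), with 387 CPM in PEP-619WW and 304 in PEP-WT. Fyn in this class turned to -0.22 (-0.64 to 0.19) when barcodes with any UMI of 9 more B cell, macrophage or neutrophil genes were left out. Among the adaptors of Gzmb-high CD8 cells, Lat was lower in PEP-619WW, at -0.14 (-0.26 to -0.01), and Lcp2 higher, at 0.29 (0.11 to 0.46). Lcp2, which macrophages and neutrophils also carry at high levels, was at 0.02 (-0.33 to 0.37) with barcodes thinned to 2000 UMIs, at 0.01 (-0.32 to 0.33) without cycling barcodes and at -0.09 (-0.50 to 0.30) with the 9 more genes left out. The summed level of 5 myeloid markers in this class was lower in PEP-619WW, at 118 against 285 CPM. Plcg1 in Gzmb-high CD8 cells was at 0.46 (0.04 to 0.88).

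Zap70, Cd247 and Vav1 had intervals that included 0 in all 3 large classes. For Zap70 the log2 ratio was 0.04 (-0.15 to 0.22) in Gzmb-high CD8 cells, -0.18 (-0.67 to 0.28) in Gzmb-negative CD8 cells and 0.11 (-0.18 to 0.40) in Gzmb-negative CD4 cells. For Zap70 the bounds leave room for a difference of more than 1.5-fold in Gzmb-negative CD8 cells only. Those of Cd247 do so in none of the 3 classes, and those of Vav1, at 0.25 (-0.11 to 0.62), -0.07 (-0.82 to 0.63) and -0.51 (-1.29 to 0.25), in all 3. Such bounds hold counting error alone and cannot exclude a larger difference. Over 15 alternatives of run 1 the ratio of Cd247 in Gzmb-negative CD4 cells reached -0.63, past 1.5-fold. The genotype ratio of Gzmb-high less that of Gzmb-negative CD8 cells had an interval clear of 0 for Lck alone among the 8 members, at 0.26 (0.01 to 0.51) on the log2 scale. The share of all genes with such a difference was not taken. Over 15 alternatives the genotype ratio of Lck lay between -0.02 and 0.26 in Gzmb-high and between -0.37 and 0.28 in Gzmb-negative CD8 cells.

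Other differences between the libraries moved with genotype. Summed over 4 red cell genes, mostly hemoglobin, PEP-WT held 1840.1 CPM in Gzmb-high CD8 cells, 1572 in Gzmb-negative CD8 cells and 2591 in Gzmb-negative CD4 cells, and PEP-619WW 47.8, 154 and 30.7. With hemoglobin, immunoglobulin, mitochondrial and ribosomal genes left out of the denominator the pooled ratio of Gzmb-high CD8 cells was 0.09 (0.03 to 0.15). Neutrophil genes, 3 summed, were at 2063 CPM in PEP-WT against 415 in PEP-619WW in Gzmb-negative CD8 cells and at 134 against 2049.5 in Gzmb-negative CD4 cells. Cycling barcodes, with a UMI of Mki67, Top2a or Birc5, were 59.4% of PEP-WT and 53.5% of PEP-619WW in Gzmb-high CD8 cells and 24.8% and 39.0% in Gzmb-negative CD8 cells. The part of these in the ratios was not tested, and genotype and library cannot be told apart.

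**Figure D3:**
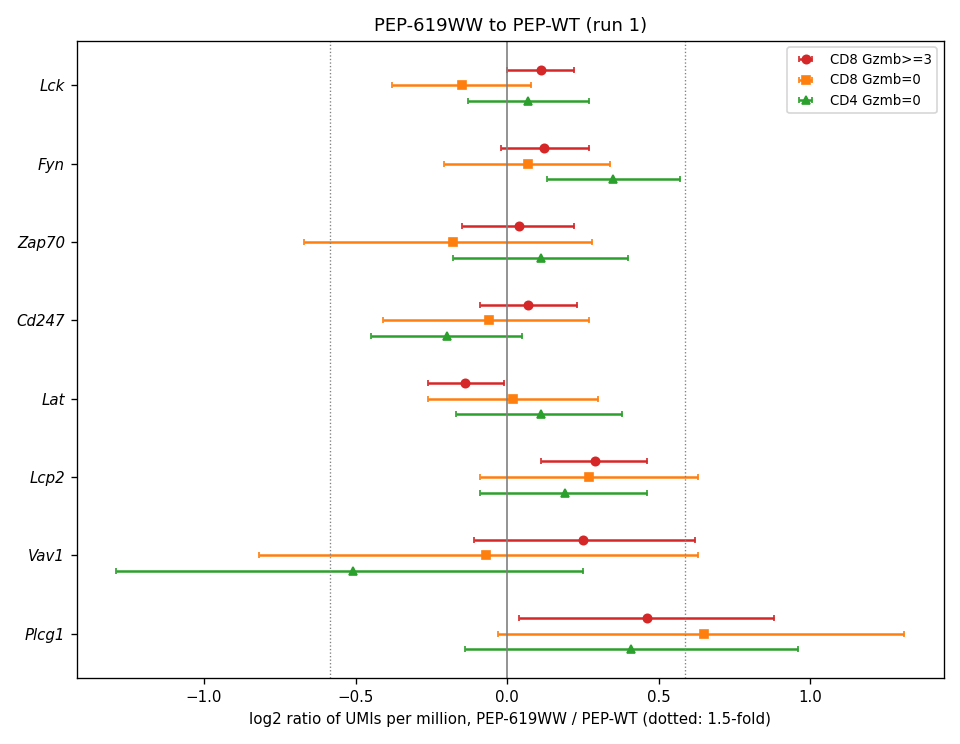
Log2 ratio of CPM (UMIs per 1000000), PEP-619WW over PEP-WT, for each member in the 3 large T cell classes of run 1, with exact 95% intervals and dotted lines at 1.5-fold. Most ratios lie near 0, and Plcg1 in Gzmb-negative CD8 cells at 0.65 is the only one past a dotted line.

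Whether the members differ with effector status was asked within CD8 cells, gene by gene. Pooled over the 8 genes, the Gzmb-high to Gzmb-negative log2 ratio in CD8 cells was -0.07 (-0.14 to 0.01) in PEP-WT and 0.01 (-0.10 to 0.12) in PEP-619WW. Fyn was lower in Gzmb-high cells, with log2 ratios of -0.37 (-0.54 to -0.19) in PEP-WT and -0.31 (-0.56 to -0.06) in PEP-619WW. Zap70 was higher, at 0.28 (0.02 to 0.55) and 0.50 (0.08 to 0.95). Over 15 alternatives of run 1 Zap70 lay between 0.07 and 0.46 in PEP-WT and between 0.22 and 0.63 in PEP-619WW, and Fyn between -0.57 and -0.03 and between -0.62 and 0.12. The intervals of both genes included 0 under some of these. Zap70 was at 0.07 (-0.14 to 0.28) and 0.27 (-0.08 to 0.64) with no exclusion by Cd79a or Csf1r. Without cycling barcodes Fyn was at -0.03 (-0.30 to 0.23) and 0.12 (-0.28 to 0.54), and with barcodes thinned to 2000 UMIs at -0.11 (-0.43 to 0.22) and 0.06 (-0.52 to 0.69). Plcg1 was lower, at -0.62 (-1.12 to -0.11) and -0.82 (-1.39 to -0.20), but with the 9 more genes left out its ratio turned to 0.12 (-0.86 to 1.16) from 28 and 14 UMIs in PEP-WT and to 0.60 (-1.08 to 2.95) from 31 and 3 in PEP-619WW. Vav1 was at -0.46 (-0.90 to -0.01) and -0.14 (-0.78 to 0.56). Lat was at 0.27 (0.11 to 0.44) in PEP-WT and 0.12 (-0.13 to 0.38) in PEP-619WW, and Lck at -0.17 (-0.31 to -0.03) and 0.09 (-0.12 to 0.31). The ratio of Lck in PEP-WT was above 0 in barcodes of 3000 to 15000 UMIs, at 0.01 (-0.15 to 0.17), without cycling barcodes, at 0.04 (-0.15 to 0.23), and in cycling barcodes alone, at 0.16 (-0.07 to 0.40). Cd247 and Lcp2 lay between -0.05 and 0.08 in both genotypes.

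Past 1.5-fold, 1 of 8 members, Plcg1, was lower and 0 higher in each genotype. In PEP-WT 12.2% of all genes were lower and 16.4% higher in Gzmb-high CD8 cells, and in PEP-619WW 8.99% and 15.0%, so the members' share was near the background for lower genes. Cells with 1 or 2 Gzmb UMIs, which belong to neither class, numbered 115 and 60 and held 431 and 323 CPM of Lck and 259 and 284 of Fyn, values that lay above those of Gzmb-high cells for Fyn in both genotypes. The classes differed in depth, as given above, in ribosomal UMIs (22.0% and 22.1% of Gzmb-high, 30.8% and 29.2% of Gzmb-negative CD8 UMIs) and in cycling; the part of these in the ratios was not tested. In CD4 cells, with 9 and 16 Gzmb-high barcodes, the pooled ratio was -0.33 (-0.68 to 0.00) and -0.08 (-0.30 to 0.12). There Cd247 was at -1.42 (-2.88 to -0.28) and Fyn at -1.11 (-2.33 to -0.11) in PEP-WT, from 6 and 8 UMIs in Gzmb-high cells, and at 0.43 (-0.08 to 0.92) and -0.32 (-0.85 to 0.16) in PEP-619WW; the intervals of the other 6 members included 0 in both genotypes. In run 2, where PEP-619WW had 61 Gzmb-high and 180 Gzmb-negative CD8 cells, Fyn was again lower in the former, at -0.47 (-0.85 to -0.10), Zap70 was at 0.25 (-0.26 to 0.77) and Plcg1 at -0.05 (-0.86 to 0.76). Lck was at -0.40 (-0.70 to -0.10) there, which differed from run 1 by -0.49 (-0.85 to -0.13).

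**Figure D4:**
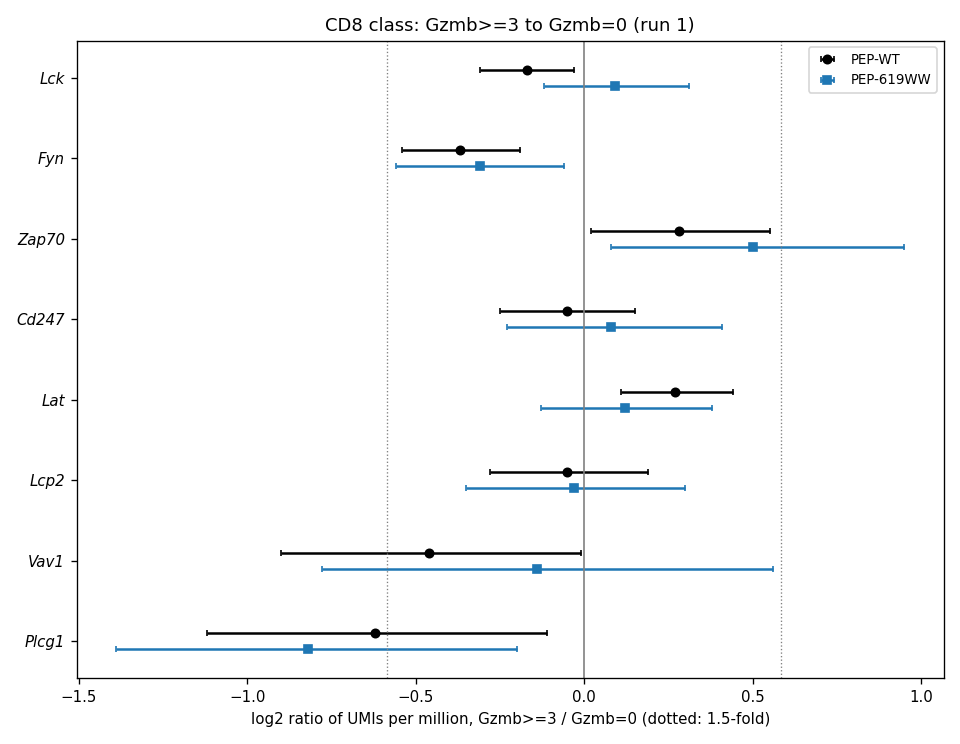
Log2 ratio of CPM in CD8 cells with at least 3 Gzmb UMIs over those with none, for each member and genotype of run 1, with exact 95% intervals and dotted lines at 1.5-fold. Fyn and Plcg1 lie left of 0 and Zap70 right of it in both genotypes.

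Between the lineages, Zap70, Cd247, Lcp2 and Fyn were lower in CD8 than in CD4 cells without Gzmb, beyond counting error, in both genotypes of run 1. The share of all genes with such intervals was not taken. Pooled over the 8 genes, the CD8 to CD4 log2 ratio in Gzmb-negative cells was -0.36 (-0.45 to -0.27) in PEP-WT and -0.47 (-0.59 to -0.35) in PEP-619WW, where the medians of all genes were -0.13 and -0.06. In PEP-WT 4 of 8 members (Zap70, Cd247, Lcp2 and Plcg1, not Fyn) were lower past 1.5-fold, where 13.2% of all genes were lower. Higher were 0, where 6.32% of all genes were. In PEP-619WW 4 of 7 measured members (Zap70, Cd247, Lcp2 and Fyn, not Plcg1) were lower, where 13.3% of all genes were lower. Higher were 0, where 5.63% of all genes were, and Vav1 had too few UMIs there. This comparison was the only one in which the members' share stood well above that of all genes among those with no Gzmb-high CD4 cells.

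Zap70 stood at 93.9 CPM in CD8 and 187 in CD4 cells of PEP-WT, a log2 ratio of -1.00 (-1.30 to -0.69), and at 82.7 and 202 CPM in PEP-619WW, a ratio of -1.29 (-1.77 to -0.84). Cd247 had log2 ratios of -0.77 (-1.01 to -0.54) and -0.63 (-0.99 to -0.29), and Lcp2 of -0.68 (-0.95 to -0.40) and -0.59 (-0.96 to -0.23). Fyn was at -0.32 (-0.53 to -0.11) and -0.60 (-0.88 to -0.33), and Plcg1 at -0.60 (-1.16 to -0.03) and -0.35 (-1.02 to 0.29). Lat, the scaffold that Zap70 phosphorylates, did not follow them, with ratios of 0.15 (-0.09 to 0.39) and 0.06 (-0.25 to 0.37). Neither did Vav1, at 0.13 (-0.45 to 0.74) and 0.57 (-0.31 to 1.45). Lck was at -0.14 (-0.31 to 0.04) in PEP-WT and -0.36 (-0.61 to -0.11) in PEP-619WW. The ratios of Fyn, Zap70, Cd247, Lcp2 and Plcg1 stayed below 0 in all 15 other ways of gating and scaling run 1 that were tried, in both genotypes. Those of the 15 that changed only the limit for Gzmb-high cells left these classes as they were and could not move the ratios. The classes differed as well in markers of other cells, with 328 and 514 CPM of 5 myeloid genes summed in CD8 against 98.8 and 138 in CD4 cells, 592 and 657 of 5 B cell genes against 481 and 547, and 1242 and 951 of 5 naive-like T cell genes against 975 and 1090.2. Summed over 6 effector genes the CD8 cells held 2622 and 3769 CPM and the CD4 cells 532 and 685. The 5 T cell markers summed were lower in CD8 cells in both genotypes, at 4685 and 4619 CPM against 5355 and 5441. Ribosomal UMIs were 30.8% and 29.2% in CD8 against 26.8% and 27.1% in CD4 cells. The neutrophil genes differed in opposite directions in the genotypes, at 2063 CPM in CD8 against 134 in CD4 cells of PEP-WT and 415 against 2049.5 in PEP-619WW. So did the red cell genes, at 1572 against 2591 and 154 against 30.7, and the summed cycling genes, at 275 against 526 and 650.0 against 339.5. The share of cycling barcodes was lower in CD8 cells of both genotypes, at 24.8% against 32.7% in PEP-WT and 39.0% against 40.1% in PEP-619WW. The part of these in the ratios was not tested. In Gzmb-high cells, with 9 and 16 CD4 barcodes, the pooled ratio was -0.10 (-0.43 to 0.24) and -0.38 (-0.58 to -0.17). In PEP-619WW Cd247 was at -0.99 (-1.44 to -0.49) and Fyn at -0.59 (-1.06 to -0.08), and in PEP-WT at 0.60 (-0.53 to 2.05) and 0.42 (-0.57 to 1.63); the intervals of the other 6 included 0 in both.

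Run 2 did not show this pattern. Its PEP-WT library had only 7 CD8 and 4 CD4 cells without Gzmb, with 47 and 17 UMIs of the 8 members, and a pooled ratio of 0.45 (-0.37 to 1.35). Its PEP-619WW library had 180 and 211, and the pooled CD8 to CD4 log2 ratio there was 0.08 (-0.04 to 0.20). Zap70 was at 88.3 CPM in CD8 and 91.3 in CD4 cells, a ratio of -0.05. Fyn was at 214 and 146 CPM, a ratio of 0.55 (0.23 to 0.87), and Lck at 326 and 263 CPM, a ratio of 0.31 (0.06 to 0.56). The difference of the ratios between runs had intervals clear of 0 for Zap70, at 1.24 (0.61 to 1.88), Fyn, at 1.15 (0.74 to 1.57), Lck, at 0.66 (0.32 to 1.01), and Cd247, at 0.64 (0.15 to 1.13). Lcp2 was lower in CD8 cells of PEP-619WW in both runs, with a ratio of -0.47 (-0.82 to -0.13) in run 2. In PEP-WT of run 2 its ratio was 1.80, from 7 and 1 UMIs.

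**Figure D5:**
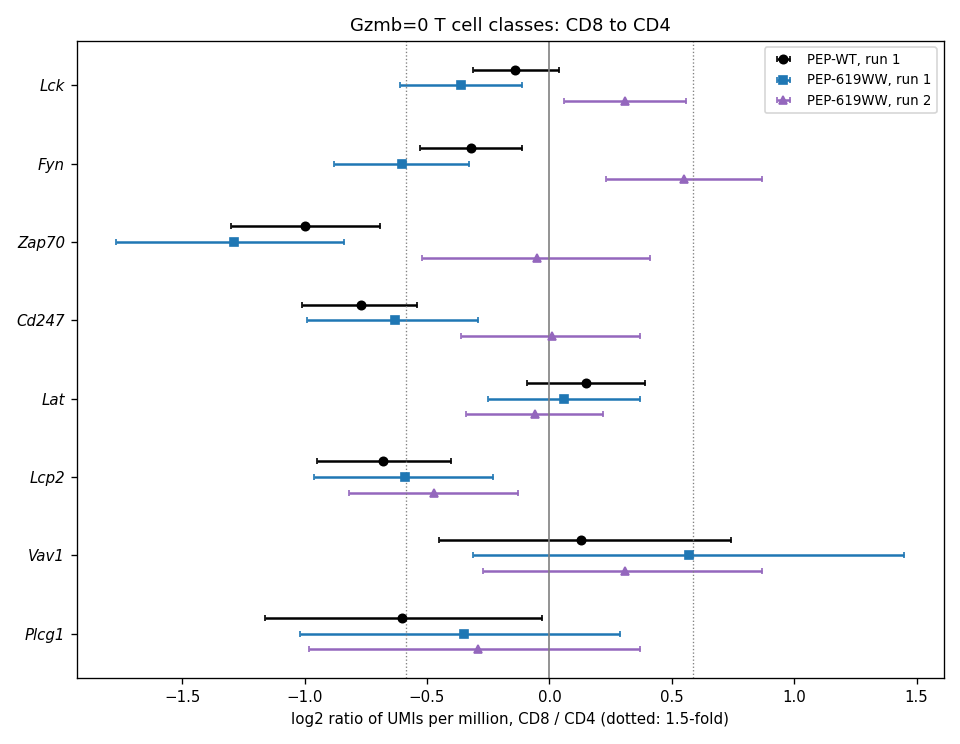
Log2 ratio of CPM in CD8 over CD4 cells without Gzmb, for each member, in PEP-WT and PEP-619WW of run 1 and PEP-619WW of run 2, with exact 95% intervals and dotted lines at 1.5-fold. Zap70, Cd247 and Lcp2 lie left of 0 in both libraries of run 1, and in run 2 Zap70 and Cd247 lie near 0 and Fyn right of it.

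The wider pathway was read from 7 lists of 95 genes, which hold the other receptor chains, regulators of Src kinases, related kinases, adaptors, negative regulators, downstream mediators and genes induced by receptor signals. Between genotypes in Gzmb-high CD8 cells 4 of 83 measured genes were higher in PEP-619WW and 2 lower, against 5.71% and 3.63% of all genes, with a median log2 ratio of 0.18 against 0.03 over all genes. Of the 4 higher genes, 3 were among the 21 downstream mediators, and the list with the highest median, 0.35, was the induced genes. By size, Nr4a1, an immediate target of TCR signals, was first at 1.07 (0.67 to 1.47), followed by the B cell and myeloid genes Lyn at -0.99 (-1.64 to -0.37) and Plcg2 at -0.75 (-1.52 to -0.00), and by the transcription factor Nfatc2 at 0.67 (0.30 to 1.03). The 5 receptor chains had a median of 0.03 and 0 of 5 passed. Ptpn22 itself was at 262 CPM in PEP-619WW and 223 in PEP-WT, and Csk at 106 and 113.

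In Gzmb-negative CD8 cells 4 of 68 were higher and 4 lower, against 7.81% and 6.39% of all genes. Egr1, another immediate target, was at -2.12 (-3.79 to -0.82) from 5 against 64 UMIs, Tnfrsf9, the activation receptor 4-1BB, at 1.03 (0.44 to 1.60), Myc at -0.89 (-1.66 to -0.19) and the negative regulator Ubash3a at 0.87 (0.29 to 1.43). In Gzmb-negative CD4 cells 3 of 69 were higher and 3 lower, against 7.25% and 7.00% of all genes, led by Tnfrsf9 at -1.13 (-1.58 to -0.69), Nr4a1 at -1.00 (-1.73 to -0.31), Irf4 at 0.94 (0.11 to 1.81) and Fcer1g, a signaling chain of myeloid and NK receptors, at 0.75 (0.01 to 1.53). Of the induced genes, 1 of 4 was higher and 2 lower in Gzmb-negative CD8 cells, and 1 of 7 higher and 2 lower in Gzmb-negative CD4 cells. Their median log2 ratios were -0.69 and -0.35 there, the lowest of the lists in both classes, against 0.04 and -0.01 over all genes. Differences between classes were not tested.

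With Gzmb in CD8 cells, 9 of 81 genes were higher and 8 lower in PEP-WT, and 14 of 79 higher and 7 lower in PEP-619WW, against 16.4% and 12.2% of all genes in PEP-WT and 15.0% and 8.99% in PEP-619WW. The suppressors of cytokine signaling Socs3 and Socs1 were lower in Gzmb-high cells of both genotypes, Socs3 at -1.99 (-2.48 to -1.52) and -1.63 (-2.25 to -0.99) and Socs1 at -1.21 (-1.53 to -0.90) and -1.56 (-2.02 to -1.10). Lat2, a relative of Lat known from B cells and myeloid cells, was at 1.73 (0.94 to 2.61) in PEP-WT, and Tnfrsf9 at 1.34 (0.96 to 1.75). In PEP-619WW Egr1 was at 2.34 (1.09 to 3.98) and Nr4a1 at 1.85 (0.77 to 3.18), against 5 and 7 UMIs in Gzmb-negative cells. PEP-WT did not show this for Nr4a1, at 19.9 CPM in Gzmb-high and 20.8 in Gzmb-negative CD8 cells, from 77 and 37 UMIs. Egr1 was at 36.0 CPM in Gzmb-negative CD8 cells of PEP-WT, against 8.27 in those of PEP-619WW. The receptor chains had 0 of 5 genes past 1.5-fold in each genotype. Between lineages without Gzmb, 7 of 75 genes were higher and 13 lower in CD8 cells of PEP-WT, and 5 of 64 and 15 in PEP-619WW, against 6.32% and 13.2% of all genes in PEP-WT and 5.63% and 13.3% in PEP-619WW.

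The genes whose levels were most like those of each member were found over 18 points, the 9 gates and classes of both genotypes, among 6291 genes. These correlations (Pearson's r of log2 of CPM plus 10) are descriptions, since the points share libraries. Lck was most like Prkcq (0.993), Sh2d1a (0.989) and Skap1 (0.981), Cd247 like Trbc1 (0.978), Lck and Cd3g (both 0.973), and Lat like Cd3g (0.994), Trbc2 (0.990) and Cd27 (0.985). Zap70 was most like Lck (0.975), Prkcq (0.973) and Prkar1a (0.972), and Fyn like Prkch (0.973), Fam189b (0.972) and Plekha5 (0.968). Lcp2 was most like Fyb (0.964), Fxyd5 (0.942) and Sept9 (0.939), Vav1 like Fam49b (0.939), Cbl (0.938) and Dlgap4 (0.922), and Plcg1 like Ptpn13 (0.953) and Celsr1 (0.944). Among the members themselves Lck had an r of 0.97 with Zap70, Cd247 and Lat, of 0.56 with Lcp2 and of 0.21 with Vav1.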

How the data were processed

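Splenic CD45+ cells of 2 genotypes were profiled by droplet single-cell RNA sequencing. The authors made UMI counts per gene and barcode with Cell Ranger (6.0.0 per the labels; the methods of the study name a later release) on the mm10 transcriptome, and the deposited tables hold whole-number counts, not normalized. Of 32285 gene IDs, 32158 were matched to a symbol. Reads were not reprocessed. UMIs remove PCR duplicates, but free RNA and doublets stay in the counts; no doublet caller was run, and T cell barcodes with Cd79a or Csf1r were left out instead. Needing a Cd3e UMI favours deeper barcodes.

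Counts were summed per genotype and class and divided by all UMIs of the class. With 1 library per genotype no test was possible: levels carry exact Poisson intervals, shares Clopper-Pearson intervals, and ratios exact intervals for a pair of Poisson counts, all at 95%. Differences between ratios carry approximate 95% intervals, from the counting errors on the log scale. The share of all genes with an interval clear of 0 was not taken in any comparison. Ratios for all genes used at least 50 UMIs over both groups and a limit of 1.5-fold. They were tried on simulated Poisson counts, which hold no variation between cells or libraries, so that check does not cover such variation. Thinning drew 2000 UMIs per barcode. By rule the members were named in every comparison (in Gzmb-high CD4 cells, with few barcodes, only those with an interval clear of 0), with the 4 pathway genes of largest ratio in the genotype and Gzmb comparisons other than those of Gzmb-high CD4 cells, and the 3 genes most like each member (at least 200 UMIs), except for genes that are not reported here. The members and lists were chosen with earlier results of these data known. The scripts ran on matplotlib 3.10.9, pandas 2.3.3, scipy 1.17.1, numpy 2.4.6 and Python 3.11.15.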

Additional observations from a re-analysis of the deposited data

Results flagged for a closer look

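The genotype ratio of Nr4a1, a gene induced by TCR signals, was 1.07 on the log2 scale (PEP-619WW over PEP-WT, 95% counting interval 0.67 to 1.47, 176 and 77 UMIs) in Gzmb-high CD8 cells and -1.00 (-1.73 to -0.31, 26 and 57 UMIs) in Gzmb-negative CD4 cells. That of Tnfrsf9 was 1.03 (0.44 to 1.60) in Gzmb-negative CD8 cells and -1.13 (-1.58 to -0.69) in Gzmb-negative CD4 cells. Both were picked out because the classes differed in direction, with intervals clear of 0; with 1 library per genotype the difference was not tested.

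The CD8 to CD4 log2 ratio of Lck in Gzmb-negative cells of PEP-619WW was -0.36 (-0.61 to -0.11) in run 1 and 0.31 (0.06 to 0.56) in run 2. That of Fyn was -0.32 (-0.53 to -0.11) in PEP-WT and -0.60 (-0.88 to -0.33) in PEP-619WW of run 1, and 0.55 (0.23 to 0.87) in PEP-619WW of run 2. These were picked out because the runs differed in direction; the difference was not tested beyond counting error, and the makeup of the runs, given with the samples, differed as well.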

How the results depend on the processing

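All ratios rest on 1 library per genotype, so every interval covers counting error alone, and depth limits Vav1, Plcg1 and all Gzmb-high CD4 values. No paired analysis was possible because each genotype had 1 library. Ratios were recomputed in 16 ways; 2 of these, with cycling barcodes left out or taken alone, and the pooled CD8 to CD4 ratio itself were chosen after seeing the data. Of 1261 values for single members 1150 stayed within the counting interval, 101 moved beyond it and 10 were ratios past 1.5-fold, with at least 50 UMIs in both groups together, that changed sign; 42 of these 111 came from run 2. Counting ratios of any size, 178 of the 1261 had the opposite sign. Alternatives that changed only the limit for Gzmb-high cells repeated the main value where both classes lacked Gzmb. These repeats are among the 1150. Run 2 values of PEP-WT cells without Gzmb rest on 7 CD8 and 4 CD4 barcodes, with 47 and 17 UMIs of the 8 members. Causes were not tested.

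The pooled genotype log2 ratio of Gzmb-high CD8 cells was -0.02 with no exclusion by Cd79a or Csf1r, 0.02 thinned, 0.01 as a mean over barcodes and -0.01 without cycling barcodes. In Gzmb-negative CD8 cells it was -0.14 thinned, -0.12 as a mean, 0.71 in run 2, -0.12 without cycling barcodes and 0.22 in cycling barcodes alone. In Gzmb-negative CD4 cells it was 0.26 with no exclusion, -0.08 with 9 more excluded genes, -0.01 in barcodes of 3000 to 15000 UMIs and 1.08 in run 2. The pooled Gzmb ratio in CD8 cells of PEP-WT was -0.19 with no exclusion, -0.26 with the denominator stripped of 4 gene groups, 0.44 in run 2, 0.09 without cycling barcodes and 0.06 in cycling ones; in PEP-619WW the values were -0.20, -0.14, -0.17 in run 2, 0.20 without cycling barcodes and 0.12 as a mean. In CD4 cells it was 0.93 in PEP-WT of run 2 and 0.29 in PEP-619WW with 9 more excluded genes. The pooled CD8 to CD4 ratio in PEP-WT was -0.27 with no exclusion and with the stripped denominator, -0.48 in barcodes of 3000 to 15000 UMIs, -0.23 scaled by the median gene and 0.45 in run 2; in PEP-619WW it was -0.34 with 9 more excluded genes, -0.59 thinned and 0.08 in run 2. Within run 1 it lay between -0.48 and -0.23 in PEP-WT and between -0.59 and -0.34 in PEP-619WW.

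Among ratios past 1.5-fold with at least 50 UMIs, directions changed for Plcg1 with Gzmb in CD8 cells of PEP-WT (0.12 with 9 more excluded genes, 1.29 in run 2, from 5 and 1 UMIs) and of PEP-619WW (0.60 with 9 more excluded genes), and in CD4 cells of PEP-WT (0.11 thinned, 0.07 with a Cd8a gate, 0.47 without cycling barcodes), where Fyn was at 0.37 in run 2, from 4 and 2 UMIs. The CD8 to CD4 ratio of Lcp2 was 1.80 in PEP-WT of run 2, from 7 and 1 UMIs, and in PEP-619WW of run 2 that of Fyn was 0.55 and that of Cd247 0.01. Below 50 UMIs, the genotype ratios of Gzmb-high CD4 cells past 1.5-fold turned for Cd247 (1.66, to -0.27 in run 2, with 4 UMIs in PEP-WT) and for Plcg1 (1.47 from 6 and 1 UMIs, to -0.83 thinned, -0.51 with a Cd8a gate, -0.08 without cycling barcodes and -0.10 in run 2). Smaller ratios crossed 0 as well: with Gzmb in CD8 cells Fyn reached 0.12 in PEP-619WW and Lck 0.16 in PEP-WT within run 1.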

Other observations

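In the few CD4 cells with at least 3 Gzmb UMIs several pathway ratios rested on 1 or 2 UMIs. Against Gzmb-negative CD4 cells of PEP-WT, Ptpn6 had 1 UMI (a log2 ratio of -2.97, -8.28 to -0.47), Ptpn11 had 2 (-2.10, -5.16 to -0.22) and Ubash3b 10 (2.10, 0.95 to 3.11). In PEP-619WW, Fcer1g was at 2.57 (1.84 to 3.29), Socs3 at -1.59 (-4.68 to 0.34) from 2 UMIs, Malt1 at -1.53 (-3.00 to -0.37) and Themis at 1.48 (0.86 to 2.07). Between genotypes in this class the receptor chain Trbc2 was at -0.94, Cd2 at -0.88, Trbc1 at 0.60 and Cd3g at -0.50 (PEP-619WW over PEP-WT).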
